A study of Homo sapiens with 8 samples.

Results

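The lysyl oxidase family holds the copper enzymes that cross-link collagen and elastin outside the cell. Its members were taken as the rows of the authors' deposited table of translation efficiency named LOX, LOXL1, LOXL2 or LOXL3, which gave 4 of the 12109 transcripts, 1 for each gene. The study used human hepatic stellate cells, which produce scar matrix in the injured liver and are labelled here as a cell line. Cells labelled dsiLARP6 (genotype LARP6 kd) were compared with cells labelled dsi-control (genotype WT), and both were grown in DMEM with serum. LARP6 belongs to the La-related proteins, binds RNA and is known for its affinity to collagen messages. Each condition had 2 RNA-seq and 2 ribosome profiling libraries, and the comparison addresses how silencing LARP6 alters the translation of each message.

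Translation efficiency is the amount of ribosome-protected fragments of a message relative to its RNA. The authors' deposited table gives it as a log2 change of knockdown over control, with a p-value and an adjusted p-value, and as a log2 efficiency in the knockdown. The control efficiency was derived here by subtraction. No values per library were given, so neither a spread between replicates nor a sequencing depth can stand beside any value. RNA and footprint levels were not analysed here, and a change in the ratio can come from either of them. Whether replicates came from separate cultures is not in the labels, and the authors' p-values may therefore cover technical spread alone. Of 10 markers of stellate cells, 9 were measured per the authors' deposited table (DES was the exception), as were 2 of 5 hepatocyte, 1 of 4 endothelial, 2 of 4 leukocyte and Kupffer cell and 3 of 4 biliary markers. LARP6 itself had a log2 change in efficiency of 0.07 (adjusted p = 0.981) per the authors' deposited table, a ratio that does not measure how much LARP6 RNA was left.

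Lysyl oxidases turn the amine of lysine side chains in collagen and elastin into an aldehyde, which then reacts with neighbouring chains to form covalent cross-links. The reaction needs copper and a quinone cofactor that the enzyme makes from its own residues. LOX and LOXL1 carry a propeptide that is removed outside the cell, whereas LOXL2 and LOXL3 carry scavenger receptor domains in front of a similar catalytic domain. In liver fibrosis these enzymes are known for making scar matrix stiff and resistant to breakdown.

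The shared catalytic end of the family is shown first, because close copies could share reads. Each protein has 1 run of 3 histidines spaced 2 residues apart, the residues that hold copper in LOX. They lie at residues 292, 294 and 296 of LOX, 449, 451 and 453 of LOXL1, 626, 628 and 630 of LOXL2 and 607, 609 and 611 of LOXL3, counted from the start methionine. The coding sequences around them are shown for LOX, LOXL1 and LOXL3, 5′ to 3′ on the coding strand, with the histidine codons in capitals.
LOX: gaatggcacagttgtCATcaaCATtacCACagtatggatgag
LOXL1: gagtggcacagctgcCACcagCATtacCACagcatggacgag
LOXL3: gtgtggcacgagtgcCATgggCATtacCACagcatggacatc
Each stretch of 42 bases spans an exon junction, within chr5:122074148-122075423 (minus strand) for LOX, chr15:73946535-73947088 (plus strand) for LOXL1 and chr2:74534410-74534550 (minus strand) for LOXL3, all on GRCh38. LOX shares 35 of the 42 bases with LOXL1 and 28 with LOXL3, and LOXL1 shares 32 with LOXL3. LOXL2 shares 28 of these bases with LOX, 31 with LOXL1 and 32 with LOXL3.

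Each window of 24 codons of LOX was matched, in frame and without gaps, to the window of each other gene most identical to it. Of these sets, the one with most bases identical in the 4 genes lay further towards the 3′ end of the coding sequence. It covers coding bases 1072 to 1143 of LOX, 1543 to 1614 of LOXL1, 2074 to 2145 of LOXL2 and 2017 to 2088 of LOXL3. This set is printed for the 3 genes below, with capitals at the 50 of 72 bases that all 3 share.
LOX: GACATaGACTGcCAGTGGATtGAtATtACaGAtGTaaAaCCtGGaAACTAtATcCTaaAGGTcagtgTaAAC
LOXL1: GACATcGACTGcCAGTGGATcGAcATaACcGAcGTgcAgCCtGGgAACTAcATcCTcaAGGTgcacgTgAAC
LOXL3: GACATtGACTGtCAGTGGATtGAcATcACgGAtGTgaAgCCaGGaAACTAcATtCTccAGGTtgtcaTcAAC
These lie, again across an exon junction, within chr5:122070157-122070553, chr15:73947843-73949470 and chr2:74533982-74534159 of GRCh38. The longest run of coding bases shared by any pair of members was 22, between LOX and LOXL1, and the longest between LOXL2 and LOXL3 was 21. No window of 28 coding bases of any member, about the length of a ribosome footprint, occurred in the same sense, without a mismatch, in an annotated transcript of another gene; matches with mismatches were not searched. On the opposite strand, 6.04% (LOXL3) to 11.4% (LOXL1) of the windows did. Over the residues that aligned without a gap, the family forms 2 pairs. LOX and LOXL1 had 59.1% identical residues among 406 aligned, and LOXL2 and LOXL3 had 56.2% among 746. The other pairs had 33.5% to 39.8%, among 339 to 511 aligned residues.

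After LARP6 silencing the translation efficiency of LOX and LOXL3 was lower, and neither LOXL1 nor LOXL2 passed the threshold. With an adjusted p under 0.05 as the threshold, 2 of the 4 members fell and 0 rose per the authors' deposited table. Over all 12109 transcripts of the authors' deposited table, 1.12% were called lower and 1.07% higher, 2.2% in all, and 10.3% had an unadjusted p under 0.05. The median log2 change of the 4 members was −0.33, against 0.015 over all transcripts, and 3 of the 4 lay below 0 where 47.3% of all transcripts did. With 4 members chosen by name, these figures describe the family and are no test of it.

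LOX, the founding enzyme of the family, had a log2 efficiency of −0.41 in knockdown cells per the authors' deposited table, against a derived value of 0.03 in control cells. On a linear scale that is 0.755 in knockdown cells and 1.02 in control cells, where the typical transcript lies near 1. Its log2 change per the authors' deposited table was −0.43, 1.35-fold lower, with a final p of 3.85e-06 and an adjusted p of 0.000436. The 2 methods of the authors' deposited table gave LOX p-values of 3.85e-06 and 1.94e-06. Small changes of this kind rarely passed: of 1114 transcripts of the authors' deposited table whose log2 change was within 0.05 of that size in either direction, 17 (1.53%) were called. LOX ranked 107 of 12109 by p, while 19.3% of all transcripts had a lower log2 change.

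LOXL3, a scavenger-receptor member of the family, had the lowest value of the 4. Its log2 efficiency was −0.83 in knockdown cells per the authors' deposited table, against a derived −0.02 in control cells, or 0.561 and 0.986 on the linear scale. The log2 change per the authors' deposited table was −0.81, 1.76-fold lower, with a final p of 1.41e-05 and an adjusted p of 0.00137. The p of method 1 per the authors' deposited table was 1.29e-06 and that of method 2 was 1.41e-05. Although its change was larger than that of LOX, LOXL3 ranked just behind it by p, at 125. Of 439 transcripts of the authors' deposited table with a change of similar size, LOXL3 included, 25 (5.69%) were called. Of all transcripts, 2.2% were.

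LOXL1, which is known for cross-linking elastin, had a log2 efficiency of −0.44 in knockdown cells per the authors' deposited table and a derived −0.21 in control cells. Its log2 change per the authors' deposited table was −0.23 with a final p of 0.0945 and an adjusted p of 0.635. LOXL2, which cross-links type IV and other collagens, was the member above 0. In the authors' deposited table its log2 efficiency was −0.10 in knockdown cells, with a derived −0.32 in control cells. The log2 change of LOXL2 per the authors' deposited table was 0.22 with a final p of 0.0623 and an adjusted p of 0.538. Method 1 of the authors' deposited table gave LOXL2 an unadjusted p of 0.0471 and method 2 one of 0.0623. The largest final p that passed the threshold per the authors' deposited table was 0.00108, so both genes were far from it. A p that misses the threshold does not show that their efficiency was the same in both conditions.

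**Figure D1:**
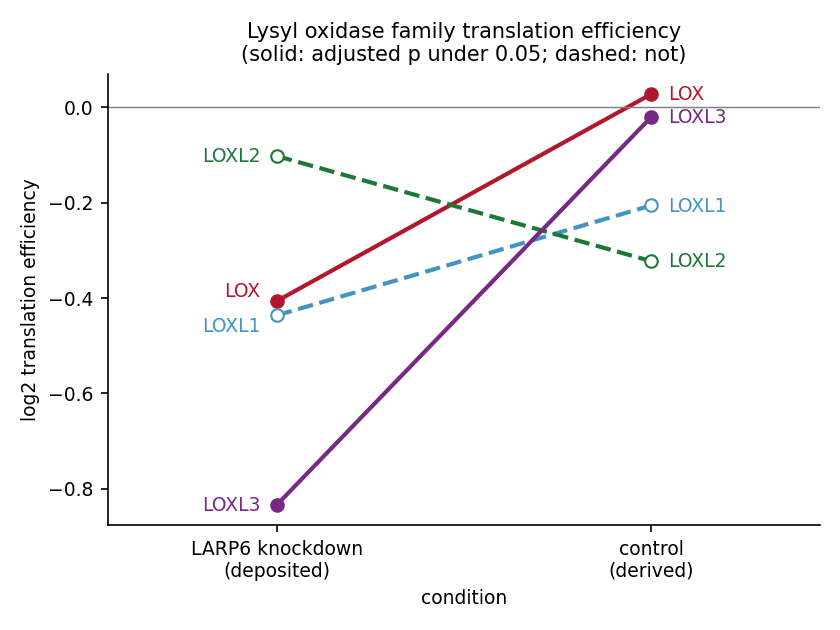
Log2 translation efficiency (vertical axis, 0 near the typical transcript) of the 4 family members in LARP6 knockdown cells (left, as deposited) and control cells (right, derived), with solid lines where the adjusted p was under 0.05. LOX and LOXL3 lie at −0.41 and −0.83 in knockdown cells and near 0 in control cells, while LOXL2 runs the other way without passing the test.

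The order of the members by efficiency differed between the conditions. In knockdown cells LOXL2 was highest at −0.10, then LOX at −0.41 and LOXL1 at −0.44, and LOXL3 was lowest at −0.83, in log2 efficiency from the authors' deposited table. In control cells the derived order was LOX at 0.03, LOXL3 at −0.02, LOXL1 at −0.21 and LOXL2 at −0.32. The members spanned 0.73 log2 units in knockdown cells and 0.35 in control cells. LOX and LOXL1 were 0.03 apart in knockdown cells, and LOX and LOXL3 were 0.05 apart in control cells. LOXL2 exceeded LOXL3 by 1.03 in log2 change, the widest gap of the 6 pairs. Without values per library no difference between members could be tested, nor can it be said which neighbours in these orders differ beyond their spread. The part of each message over which reads were counted is not stated in the labels or the table, so efficiencies of different genes are set side by side only as ratios. All 4 members lay in the middle of the range in control cells, between the percentiles 37.7 and 51.1 of all transcripts.

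**Figure D2:**
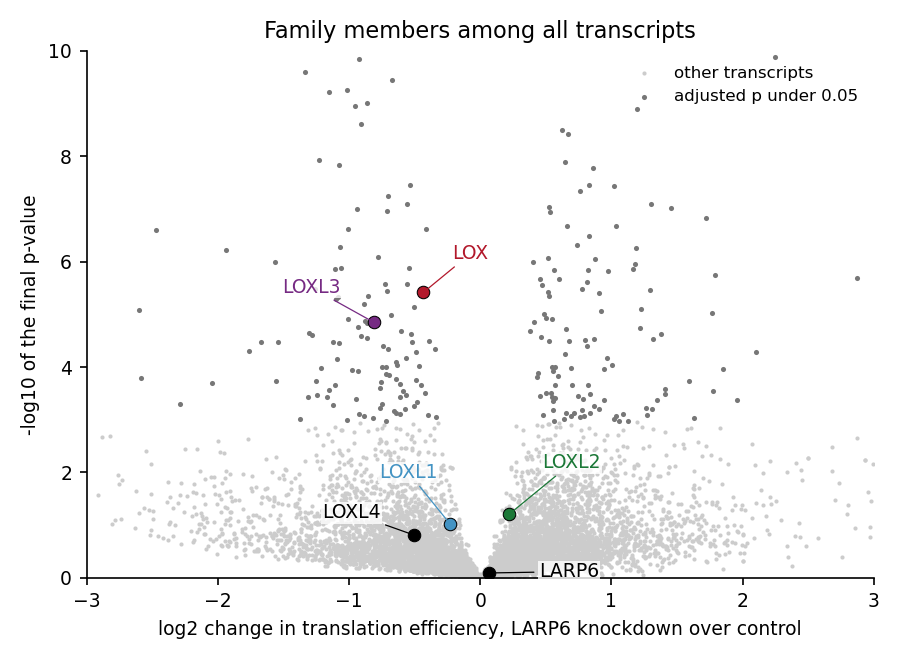
Each point is a transcript, with the log2 change in translation efficiency (knockdown over control) on the horizontal axis and −log10 of the authors' final p on the vertical axis; 65 transcripts fall outside the axes. LOX and LOXL3 lie among the called transcripts on the lower side, and LOXL1, LOXL2, LOXL4 and LARP6 lie among those not called.

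LOXL4, the remaining gene of the family and not among the members, had a log2 change of −0.50 per the authors' deposited table, larger in size than that of LOX, but a final p of 0.154 and an adjusted p of 0.757. Its log2 efficiency was −0.88 in knockdown cells per the authors' deposited table, with a derived −0.37 in control cells. At a like size of change the p of LOXL4 was thus far larger than that of LOX, and the read depth behind either is unknown. AOC2, a copper amine oxidase of another family, had a log2 change of 0.68 with an adjusted p of 0.961 per the authors' deposited table.

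The transcripts behind these values differ in build. The LOX transcript (chr5:122063195-122078285, minus strand, GRCh38) has 7 exons, a coding sequence of 1254 bases and a 3′ untranslated region of 3548 bases, longer than in 86.6% of the protein-coding transcripts measured. The LOXL1 transcript (chr15:73926458-73952137, plus strand) also has 7 exons, with 1725 coding bases and a 3′ untranslated region of 300 bases. Its coding sequence has 68.9% G and C, above 97.8% of those transcripts. The LOXL3 transcript (chr2:74532438-74553935, minus strand) has 14 exons, 2262 coding bases and a 5′ untranslated region of 72 bases, the shortest of the 4. The LOXL2 transcript, on chromosome 8, has 14 exons and 2325 coding bases behind a 5′ untranslated region of 370 bases. Upstream ATG triplets were absent from the 5′ untranslated regions of LOX, LOXL2 and LOXL3, as in 50.6% of the protein-coding transcripts, and LOXL1 had 3. LOX and LOXL3, the genes whose efficiency fell, differed in length of the 5′ untranslated region (300 and 72 bases) and of the coding sequence. Their 5′ untranslated regions had the lowest G and C content of the 4, 58.3% and 62.5% against 67.5% (LOXL1) and 65.9% (LOXL2). These 2 values lay above 19.6% (LOX) and 31.5% (LOXL3) of the protein-coding transcripts. Their 3′ untranslated regions, of 3548 and 1168 bases, were the longest of the 4. That of LOXL3 was of ordinary length, longer than in 52.5% of the protein-coding transcripts. Whether any of these features bears on the change was not tested. No other isoform of these genes had a row, although 6 transcripts are annotated for LOX, 5 for LOXL1, 15 for LOXL2 and 10 for LOXL3.

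**Figure D3:**
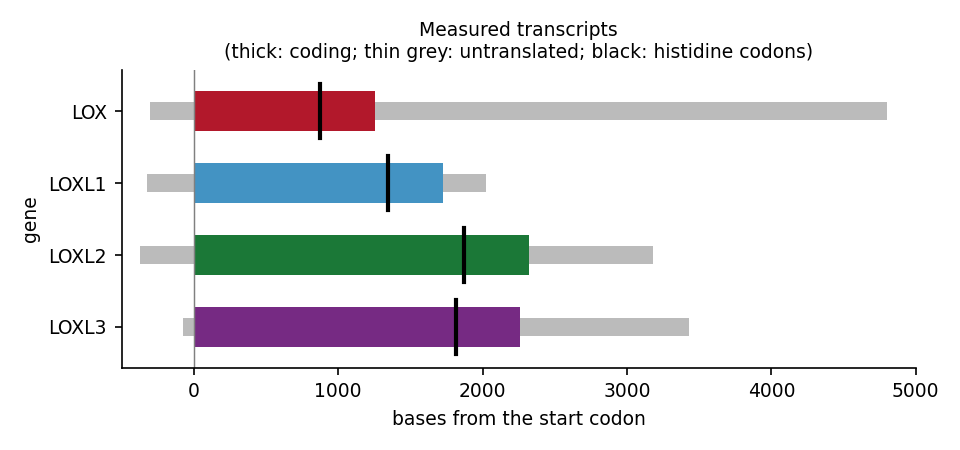
The 4 measured transcripts to scale, aligned at the start codon, with bases on the horizontal axis; thick bars are coding, thin grey bars untranslated, and the black line marks the copper-binding histidine codons. The histidines lie between 69.6% and 80.6% of the way along the coding sequence, and LOX has the longest 3′ untranslated region, at 3548 bases.

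Exons of other genes run across each member, and neither the labels nor the table state whether reads were assigned by strand. LOXL3 coding sequence is crossed on the opposite strand by 159 exonic bases of the adaptor gene DOK1, which had a log2 change of 0.35 (adjusted p = 0.871) per the authors' deposited table. The 3′ untranslated region of LOXL3 meets 625 exonic bases of the mitochondrial protease gene HTRA2, with a log2 change of 0.25 (adjusted p = 0.937) per the authors' deposited table. LOX is crossed over 138 coding bases by SRFBP1, at −0.63 (adjusted p = 0.747) per the authors' deposited table. LOXL1 shares 232 coding bases with its antisense RNA LOXL1-AS1, at −0.20 (adjusted p = 0.976) per the authors' deposited table. LOXL2 is crossed over 178 coding bases by the non-coding AC090197.1, which has no row. Further, 120 untranslated bases of LOXL2 are shared on the same strand with ENTPD4, which had a log2 change of 1.10 (adjusted p = 0.225) per the authors' deposited table. None of the 5 neighbours with a row was called, and their part in the members' values was not tested.

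The substrates of the family were compared next. Over all transcripts 1.12% were called lower and 1.07% higher, the shares to set beside the counts of this and each further list. Of 11 listed fibrillar collagens, the chains that lysyl oxidases cross-link, 7 were measured per the authors' deposited table, of which 3 fell, 1 rose and 3 were not called. Their median log2 change was −0.42, against 0.015 over all transcripts. The matrix collagens were known from earlier results of these data when the list was drawn up, so its values support nothing about the family. COL3A1, the chain of type III collagen, fell by 0.82 in log2 units per the authors' deposited table (adjusted p = 3.23e-23), close in size to LOXL3. The type I collagen chains COL1A1 and COL1A2 fell by 0.57 and 0.42 per the authors' deposited table, the second close in size to LOX. COL5A3, a minor type V chain, rose by 0.86 per the authors' deposited table. The other chains had log2 changes of −0.23 (COL5A2), −0.69 (COL11A1) and −0.11 (COL5A1) per the authors' deposited table and were not called.

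Elastin and the proteins on which elastic fibres are built showed 1 call among 15 measured transcripts of the authors' deposited table. The share called over all transcripts was 2.2%. FBN1, the microfibril protein fibrillin-1, fell by 0.49 in log2 units (adjusted p = 0.00389) per the authors' deposited table. Elastin itself, ELN, the substrate of LOX and LOXL1, had a log2 change of −0.17 (adjusted p = 0.623) per the authors' deposited table. The fibulin FBLN5, which tethers LOXL1 to elastic fibres in mice, stood at 0.48 (adjusted p = 0.248) and FBLN2 and LTBP2 at −0.29 and 0.34, all not called, per the authors' deposited table. In total 11 of the 15 lay below 0, with a median of −0.17, where 47.3% of all transcripts lay below 0.

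Among proteases and cofactors that activate lysyl oxidases or process procollagen, 3 of 10 measured transcripts fell and 0 rose per the authors' deposited table. Of all transcripts, 1.12% were called lower and 1.07% higher. The 3 that fell in this list are matrix proteins rather than proteases. POSTN, periostin, a scaffold that brings the activating protease to LOX, was 2.52-fold lower (adjusted p = 7.38e-08) per the authors' deposited table. FN1, fibronectin, on which LOX is activated, and THBS1, thrombospondin-1, fell by 0.56 and 0.42 in log2 units per the authors' deposited table. BMP1, the protease that removes the LOX propeptide, had a log2 change of −0.36 (final p = 0.0149, adjusted p = 0.273) per the authors' deposited table. FURIN, the convertase that activates BMP1, had 0.69 (adjusted p = 0.141), and ADAMTS2, a procollagen peptidase, 0.19 (adjusted p = 0.871) per the authors' deposited table. The median of this list was 0.04, near that of all transcripts.

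No gene of copper import and delivery was called, where 2.2% of all transcripts were. Of 10 measured transcripts 0 passed per the authors' deposited table and 0 had an unadjusted p under 0.05, against 10.3% of all transcripts. With 10 transcripts, counts of 0 set against these shares say little about the list. Its median log2 change was −0.02. ATP7A, the pump that loads copper onto secreted enzymes such as LOX, had a log2 change of −0.04 (adjusted p = 0.992) per the authors' deposited table. The copper chaperone ATOX1 stood at 0.005 (adjusted p = 0.997) per the authors' deposited table. The transcripts with the smallest p were the acetyl-CoA transporter SLC33A1 at −0.67, the metallothionein MT2A at −0.29 and the copper pump ATP7B, with adjusted p from 0.634 to 0.747 per the authors' deposited table. ATP7B had a log2 efficiency of −0.99 in knockdown cells per the authors' deposited table, against a derived −2.99 in control cells.

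The enzymes that act on collagen before cross-linking, and other cross-linkers, gave 1 fall and 1 rise among 17 measured transcripts of the authors' deposited table, with a median log2 change of 0.01. The shares over all transcripts were 1.12% lower and 1.07% higher. SERPINH1, the collagen chaperone HSP47, fell by 0.45 in log2 units (adjusted p = 0.0134) per the authors' deposited table. TGM2, a transglutaminase that cross-links matrix proteins through glutamine and lysine rather than by oxidation, was 1.84-fold higher (adjusted p = 0.000133) per the authors' deposited table. PLOD2, the hydroxylase whose product steers LOX cross-links towards a stable form, had a log2 change of −0.04 (adjusted p = 0.983), and its partner FKBP10 −0.14 (adjusted p = 0.840) per the authors' deposited table. The prolyl hydroxylase subunits P4HB and P4HA3 stood at 0.20 and −0.48 and the glycosyltransferase COLGALT1 at −0.27, none of them called, per the authors' deposited table.

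Proteins at fibril surfaces, several of which control where lysyl oxidases act, gave 2 falls and 0 rises among 11 measured transcripts of the authors' deposited table, with a median of −0.21. Among all transcripts 1.12% were called lower and 1.07% higher. The small proteoglycans DCN and LUM fell by 0.66 and 0.68 in log2 units per the authors' deposited table. FMOD, fibromodulin, which binds LOX and directs it to collagen, had a log2 change of 0.37 (final p = 0.0355, adjusted p = 0.414) per the authors' deposited table. SPARC and TNC had smaller p-values than FMOD but were not called either. Per the authors' deposited table SPARC stood at −0.21 (final p = 0.00816, adjusted p = 0.200) and TNC at −0.84 (final p = 0.0112, adjusted p = 0.234).

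Of 23 measured regulators described for lysyl oxidase genes or products, 2 fell and 1 rose per the authors' deposited table, with a median of 0.04. JUN, a subunit of the transcription factor AP-1, was 2.03-fold higher (adjusted p = 7.59e-06) per the authors' deposited table. The growth factor FGF2 and the receptor PDGFRB fell by 0.71 and 0.57 in log2 units per the authors' deposited table. HIF1A, the hypoxia factor that drives LOX transcription, had a log2 change of −0.22 (final p = 0.0281, adjusted p = 0.372) per the authors' deposited table. TGFB2 and TWIST1 stood at −0.76 and 0.79, both not called, per the authors' deposited table. SNAI1, a partner of LOXL2 and LOXL3 inside the nucleus, stood at 0.36 (adjusted p = 0.941) per the authors' deposited table. Over the 8 lists together, 12 of 95 measured transcripts fell and 3 rose per the authors' deposited table, against 1.12% and 1.07% of all transcripts. The matrix collagens, DCN, LUM, FN1 and POSTN were known from earlier results of these data when the lists were drawn up, so these counts support nothing about the family.

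**Figure D4:**
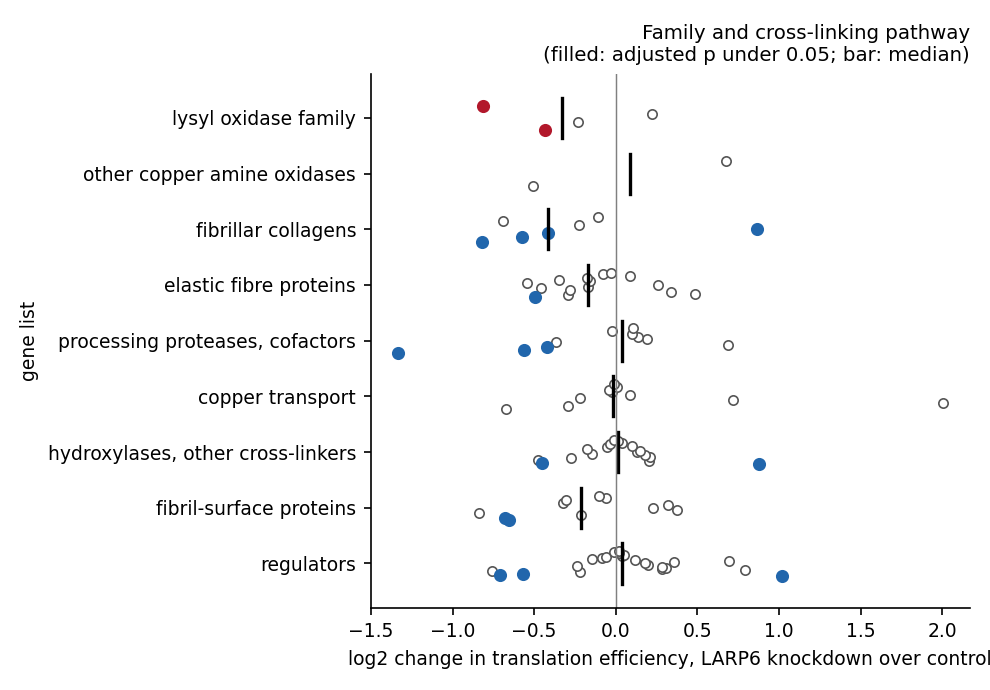
Log2 change in translation efficiency, knockdown over control (horizontal axis), of each measured transcript of the family and of 8 lists of the cross-linking pathway (rows), filled where the adjusted p was under 0.05 and with a bar at each median. The filled points of the family and of the fibrillar collagens lie mostly left of 0, COL5A3 being the exception. No point of the copper transport list is filled, where 2.2% of all transcripts were called.

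The called transcripts whose pair of efficiencies lay nearest to that of each fallen member were found by Euclidean distance over the 2 conditions, among the 255 others that carry a gene name rather than a transcript type. Nearest to LOX were PDGFRB (distance 0.09), CALD1 (0.12), an actin-binding protein, and FGF2 (0.19), in log2 units of the authors' deposited table. Nearest to LOXL3 were TENT5A (0.13), CCDC80 (0.13) and SH2D4A (0.15), in the same units of the authors' deposited table. Over 2 conditions such nearness restates a like efficiency and a like change.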

How the data were processed

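The deposited table is the authors' own comparison of translation efficiency over 8 libraries. Its log2 values are changes in efficiency from 2 methods, a final change and the knockdown efficiency, per the file headers. The deposited p-values are those of each method, a final p-value (the larger of the 2 in all 12109 rows, relative tolerance 1e-09) and its Benjamini-Hochberg adjustment. Per the submitters' processing notes, cutadapt, Bowtie, hg38 and GRCh38 were used; neither the program behind the comparison nor the treatment of reads with several alignments is given in the sources used here.

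Control efficiency was derived as knockdown efficiency minus the change of method 2. Rows were joined to GENCODE 29 (GRCh38) by symbol and the last 6 digits of the transcript identifier; 11242 matched and 867 did not. The printed sequences are coding stretches of GENCODE 29 transcripts. Percentiles of lengths and GC content used 10171 protein-coding transcripts with a complete coding sequence. Protein identity came from global alignment in Biopython 1.88, as the share of aligned residues that were identical, with gaps left out. Tables used pandas 2.3.3 in Python 3.11.15. The adjustment code was tested on simulated data.

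The members and lists were chosen with earlier results of these data known. Named genes were the family, LARP6, LOXL4, list members with an adjusted p under 0.05, up to 3 further ones of each list with the smallest p, and the nearest called transcripts. ELN, ATP7A, ATOX1, PLOD2, FKBP10, SNAI1 and the genes overlapping the members were added after their values were seen. Some planned fits needed values per library and were not run.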

Additional observations from a re-analysis of the deposited data

How the results depend on the processing

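LOX and LOXL3 stayed called lower at an adjusted p threshold of 0.01 and among protein-coding transcripts alone. LOXL1 and LOXL2 stayed uncalled at 0.10, with either method alone and among protein-coding transcripts alone. The other combinations could not change these calls: the final p is the larger of the 2 methods' p, so neither a single method nor a threshold of 0.10 can end a call, a threshold of 0.01 can add none, and centring on all or on protein-coding transcripts shifts the log2 change and leaves p as it was. Over the settings other than the fold minimum the log2 change of LOX ran from −0.45 to −0.43 and that of LOXL3 from −0.83 to −0.81. A minimum change of 1.5-fold, which LOX does not reach by construction, left 1 member called lower and 5 list transcripts lower, against 12. Of all transcripts, 86 were called higher at an adjusted p under 0.01 and 263 with method 1 alone, against 130 with both methods. Of 96 counts for single lists under these settings, 8 moved, either by over 1.5 times or to or from 0. No paired analysis was possible because single libraries have no values in the table; leaving out each replicate was not run for the same reason. The depth behind each value is unknown, so a change too small or too thinly read to be called cannot be told from none.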
